A study of Mus musculus with 6 samples.

Results

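The mitochondrial ribosomal proteins were described in Rras2(Q72L) fibrosarcoma cells of C57BL/6 background, as every gene whose symbol starts with Mrpl or Mrps followed by a digit. This gave 76 of the 19505 genes measured, 48 with large-subunit and 28 with small-subunit symbols, each read by 1 probe set. The rule reads the symbols and no measured value, though it was written with earlier results of these data known. Fibrosarcomas are cancers of the fibroblast lineage, and Q72L is a mutant form of R-RAS2, a GTPase related to RAS. The control cells carried the empty lentiviral vector pLKO (3 arrays, replicates 1 to 3) and the knockdown cells the vector shRras2, with 1 shRNA directed at Rras2 (sh#89; 3 arrays, replicates 4 to 6). Both groups therefore carry the Q72L form, and effects of this shRNA on other transcripts cannot be told apart from the loss of Rras2. Whether separate cultures stand behind the arrays is not stated in the labels, and the p-values then cover only the spread seen between these samples, which may be technical. A batch that follows the replicate numbers cannot be told apart from the groups.

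Mitochondria make the few proteins encoded by their own DNA, all of them parts of the respiratory chain or of ATP synthase, on ribosomes of their own. The RNAs of that ribosome come from mitochondrial DNA, while every protein in it is encoded in the nucleus, made in the cytosol and imported. The large subunit forms peptide bonds and holds the exit tunnel, which lies against the inner membrane, and the small subunit binds the messenger RNA and decodes it. Many of the proteins have counterparts in bacterial ribosomes, and others are found only in mitochondria.

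The targeted gene was low in the knockdown. Rras2 was 10.67, 10.75 and 10.82 on the log2 scale on control replicates 1, 2 and 3, and 9.09, 9.69 and 9.21 on knockdown replicates 4, 5 and 6. The difference was -1.41 ± 0.14 in log2 units (SE; limma adjusted p = 0.00163; exact two-sided permutation p = 0.1, the smallest possible with 3 arrays against 3). Knockdown replicate 5 kept the most Rras2 signal. All differences here are knockdown minus control in log2 RMA signal, and a gene is said to have fallen or risen where limma's p, adjusted over all 19505 genes, was under 0.05. Of the 10 skeletal muscle markers 5 rose and 0 fell, against 2.99% and 2.22% of all genes. Differences were above 0 for 9 of them, while Myf6 was lower on every knockdown array (-0.38, limma adjusted p = 0.0601). A mean under the background mark (the 95th percentile of the negative-control probe sets, 7.92) was found for 7 of the 10. Among these 7 were Des and Myog, which rose. The summed log2 signal of all 10 was 62.0 to 63.5 on the controls and 73.6 to 78.7 on the knockdown arrays. Of 10 measured fibroblast markers 3 rose and 0 fell, and the sums of the 10 were 85.1 to 85.9 and 86.2 to 88.5. Means under that mark were found for 5 of these 10, among them Dcn, 1 of the 3 that rose. The 7 epithelial, 6 endothelial and 5 leukocyte markers all had means under that mark. What part the muscle genes have in the results below was not tested.

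Among the mitochondrial ribosomal protein transcripts only Mrpl42 passed the threshold, and the differences ran from -0.39 to 0.15. In all 1 of 76 genes (1.32%) fell and 0 rose, against 5.21% of all genes past the threshold in either direction, 2.22% lower and 2.99% higher. The share called rests on this 1 gene: it was below that of all genes here, and above it under trend and robust variance settings. The signs were less evenly split: 64 of 76 differences (84.2%) lay below 0, against 53.2% of all genes, and the median was -0.13 against -0.01. All 3 knockdown arrays lay below all 3 controls for 32 of the 76 (42.1%), against 13.9% of all genes, and above them for 0, against 11.6%. This was not particular to the list: the share lower with groups apart was 59.4% for cytosolic ribosomal protein genes and 55.2% for mitochondrial import genes, both described below. At an unadjusted limma p under 0.05, 23 were lower and 0 higher, against 10.0% and 9.11% of all genes. All 76 were read from the same 6 arrays, so the counts describe the list and are no test of it.

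**Figure D1:**
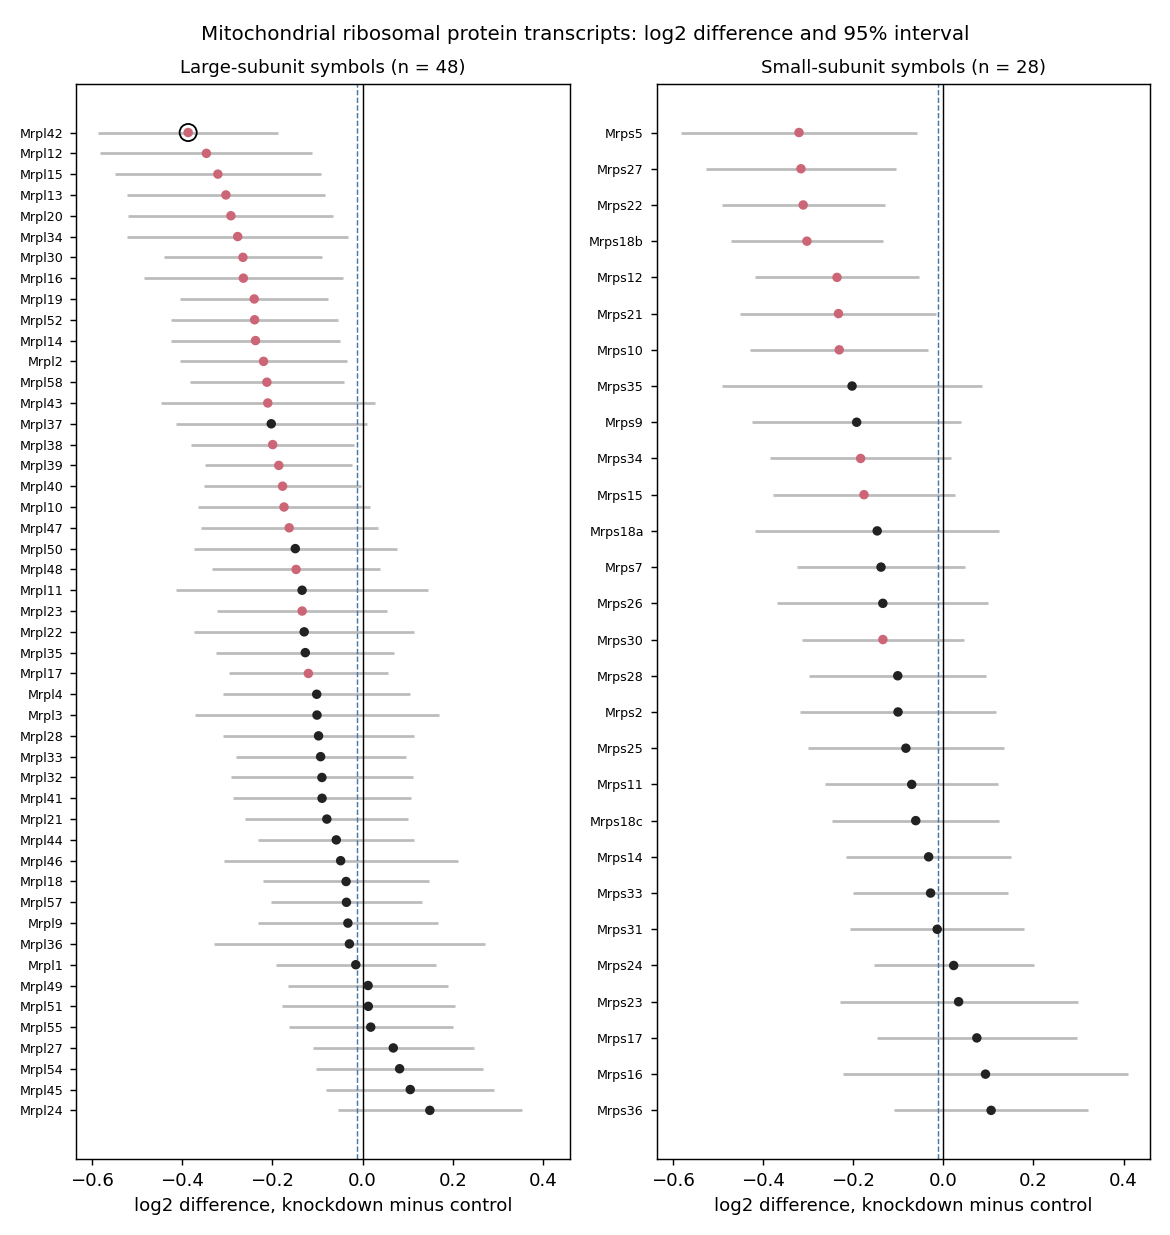
The log2 difference (knockdown minus control) of each of the 76 genes is shown as a point with its 95% interval from limma, large-subunit symbols left and small-subunit symbols right; the dashed line is the median of all genes (-0.01). Red points mark the 32 genes whose 3 knockdown arrays lay below all 3 controls, and the circle marks Mrpl42, the 1 gene past the adjusted threshold; most points lie left of 0 and none lies beyond -0.39 or 0.15.

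No change as large as 2-fold lay inside the 95% interval of any of the 76 genes. The intervals, each for 1 gene and not adjusted for their number, reached down to -0.59 (Mrpl42) and up to 0.41 (Mrps16). On the linear scale the knockdown signal was between 76.5% and 111% of the control signal, with a median of 91.1%. The typical SE of a difference was 0.09 (median over the 76), so that a difference of the size of the median was not resolvable for a single gene with these 6 arrays.

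The 48 large-subunit symbols had a median difference of -0.13 (quartiles -0.21 and -0.05), with 41 below 0. Mrpl42, which encodes a protein of the large subunit found only in mitochondria, was 11.08, 11.06 and 10.97 in the controls and 10.56, 10.61 and 10.78 in the knockdown. The highest knockdown array, replicate 6, stayed below the lowest control, replicate 3. Its means were 11.04 ± 0.06 and 10.65 ± 0.12 (SD, n = 3 each), and it fell by 0.39 on the log2 scale (SE 0.09, limma adjusted p = 0.0408). This call rested on all 6 arrays: without any 1 of them the adjusted p lay between 0.0508 and 0.141, with differences of -0.45 to -0.34. With cyclic loess scaling it was 0.0518.

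Among the large-subunit proteins with a bacterial counterpart, Mrpl12 had the most negative difference. Its product is the stalk protein that recruits translation factors to the ribosome. The signal was 9.59, 9.71 and 9.96 in the controls and 9.44, 9.43 and 9.34 in the knockdown, with a difference of -0.35 ± 0.10 (SE; limma adjusted p = 0.102). The groups did not overlap, but control replicate 3 stood above the other controls, and without it the difference was -0.24. Mrpl15 was 8.38, 8.22 and 8.10 against 7.77, 7.98 and 7.98, a difference of -0.32 ± 0.10. Mrpl13 and Mrpl20, whose bacterial counterparts bind the large ribosomal RNA, differed by -0.30 ± 0.10 and -0.29 ± 0.10 (SE; limma adjusted p = 0.119, 0.124 and 0.151 for Mrpl15, Mrpl13 and Mrpl20). In each of these 3 genes the knockdown arrays all lay below the controls and none passed the threshold. Mrpl30, named after its values were seen because its adjusted p was the second lowest of the large subunit, was 9.40, 9.38 and 9.43 against 9.12, 9.21 and 9.07. Its difference was -0.27 ± 0.08 (SE; limma adjusted p = 0.0938). Also chosen after its values were seen, Mrpl58, a peptidyl-tRNA hydrolase built into the ribosome, varied little among the controls, at 10.05, 10.04 and 10.05. Its knockdown arrays were lower at 9.76, 9.88 and 9.87, and its limma adjusted p was 0.163.

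The most positive differences of the large subunit were small. Mrpl24, a protein near the exit tunnel, was 9.54, 9.60 and 9.56 in the controls and 9.57, 9.85 and 9.72 in the knockdown. The groups overlapped, and the difference was 0.15 ± 0.09 (SE; limma adjusted p = 0.425). Mrpl45, which lies at the tunnel exit and contacts the inner membrane, differed by 0.11 ± 0.08, and Mrpl54 by 0.08 ± 0.08. All 3 of these had overlapping groups and intervals that included 0. Mrpl51, of the same subunit, was level in both groups at 10.25 ± 0.12 and 10.27 ± 0.02 (SD, n = 3 each).

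The 28 small-subunit symbols had nearly the same median, -0.13 (quartiles -0.21 and -0.03), with 23 below 0, and 0 passed the threshold in limma while 7 had an unadjusted p under 0.05, all lower. Mrps18b, 1 of the 3 mammalian proteins related to bacterial S18, came closest. It was 9.99 on each control array and 9.73, 9.71 and 9.62 in the knockdown. Its difference was -0.30 ± 0.07 (SE; limma adjusted p = 0.0544). Mrps22, a mitochondria-specific protein in which inherited variants cause mitochondrial disease, was 8.75, 8.79 and 8.77 against 8.39, 8.42 and 8.56. Its difference was -0.31 ± 0.08 (SE; limma adjusted p = 0.0629). In both genes the controls were tightly grouped and every knockdown array lay below them.

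Mrps27, a mitochondria-specific protein of the pentatricopeptide repeat family, was 8.79, 8.63 and 8.92 in the controls and 8.40, 8.53 and 8.46 in the knockdown. Its difference was -0.32 ± 0.09 (SE; limma adjusted p = 0.0991). Mrps5, a counterpart of bacterial S5, was 9.40, 9.40 and 9.56 against 8.91, 9.34 and 9.14, so that knockdown replicate 5 was close to the controls and replicate 4 the lowest. Its difference was -0.32 ± 0.12 (SE; limma adjusted p = 0.17), and -0.21 without knockdown replicate 4. Mrps12, a protein of the decoding center, differed by -0.24 ± 0.08 (SE; limma adjusted p = 0.148), again with no overlap. At the other end Mrps16 and Mrps17, both with bacterial counterparts, differed by 0.09 ± 0.14 and 0.07 ± 0.10, and both had overlapping groups.

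**Figure D2:**
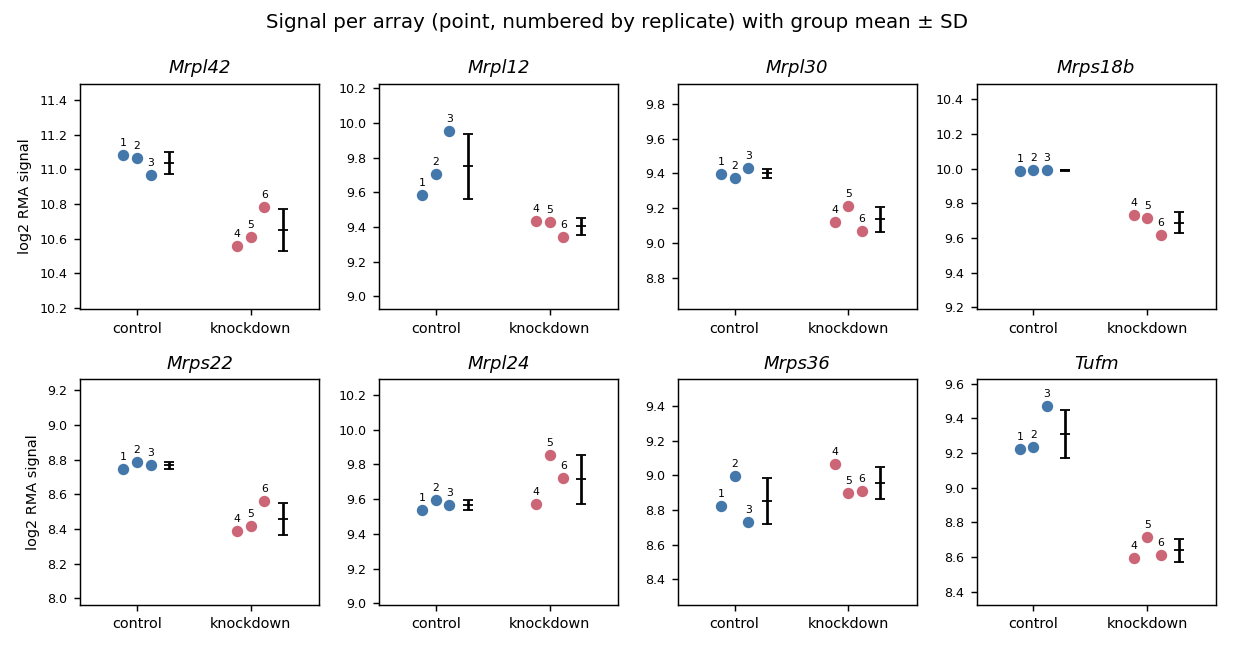
Each panel plots the log2 RMA signal of 1 gene on the 6 arrays (points, numbered by replicate; blue controls, red knockdown) with the group mean ± SD, on axes of equal span. Mrpl42, Mrpl12, Mrpl30, Mrps18b and Mrps22 have every knockdown array below every control, Mrpl24 and Mrps36 overlap, and Tufm, a translation factor and not a ribosomal protein, shows the widest gap.

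The symbols do not always give the place of the protein. Mrps30 and Mrps18a sit in the large subunit of the mammalian mitochondrial ribosome, and their differences were -0.13 ± 0.08 and -0.15 ± 0.12. Mrps36 is a component of the oxoglutarate dehydrogenase complex of the citric acid cycle rather than of the ribosome. It had the most positive difference among the small-subunit symbols, 0.11 ± 0.10, with values of 8.82, 8.99 and 8.73 in the controls and 9.06, 8.90 and 8.91 in the knockdown. None of these 3 passed the threshold (limma adjusted p = 0.413, 0.569 and 0.609). Subunits that carry other names were Dap3, Ptcd3, Chchd1 and Gadd45gip1, of which the first 3 belong to the small subunit. All 4 differences were below 0, from -0.23 (Gadd45gip1) to -0.06 (Ptcd3), and 0 of the 4 passed in limma while 1 had an unadjusted p under 0.05.

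Proteins were also split, from general knowledge of the particle, by whether they hold the place of a bacterial protein. Mrps18a and Mrps18b, though related to bacterial S18, were counted as mitochondria-specific, and Mrps18c as the counterpart. The 45 genes with a counterpart had a median difference of -0.13, with 39 below 0 and 19 with the knockdown below the controls on every array. The 30 mitochondria-specific ones had a median of -0.15, with 25 below 0 and 13 so separated. Of all genes, 53.2% were below 0 and 13.9% so separated. This comparison is a description, and no test was made of it. Most of the genes were well read: 65 of the 76 (85.5%) had a mean above the background mark, against 41.7% of all genes. Comparisons with all genes thus set mostly bright genes against a set that is mostly under the mark. Without the lowest 30% of genes, 17.3% of those left were lower with groups apart, instead of 13.9%. Mrps14 and Mrps11, 2 of the 3 brightest small-subunit symbols, differed by -0.03 ± 0.08 and -0.07 ± 0.09. The 11 under the mark were Mrpl1, Mrpl14, Mrpl16, Mrpl22, Mrpl36, Mrpl46, Mrpl47, Mrpl54, Mrps18c, Mrps24 and Mrps35, whose differences can be understated. The dimmest 3 of each subunit were Mrpl36 (-0.03 ± 0.13), Mrpl46 (-0.05 ± 0.12), Mrpl22 (-0.13 ± 0.11), Mrps35 (-0.20 ± 0.13), Mrps24 (0.02 ± 0.08) and Mrps18c (-0.06 ± 0.08), all with overlapping groups.

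The arrays themselves were then compared by taking, for each gene, its deviation from its mean over the 6 arrays. The median deviation of the large-subunit symbols was 0.05, 0.02 and 0.10 on control replicates 1, 2 and 3, and -0.08, -0.03 and -0.07 on knockdown replicates 4, 5 and 6. For the small-subunit symbols it was 0.02, 0.05 and 0.09 on the controls and -0.11, -0.04 and -0.04 on the knockdown arrays. All 3 control medians were above 0 and all 3 knockdown medians below 0 in both subunits. The array medians over all genes had the same signs but were smaller, between -0.01 and 0.01. Control replicate 3 was the highest and knockdown replicate 4 the lowest in both subunits, and also over all genes (0.0126 and -0.0068). Control replicate 3 had the highest of the 6 values for 21 of 48 large-subunit and 12 of 28 small-subunit symbols, and knockdown replicate 4 the lowest for 17 and 16. Over all 19505 genes these were also the arrays most often highest (control replicate 3, 4373 genes) and most often lowest (knockdown replicate 4, 3978 genes). Without control replicate 3 the median differences of the large and small subunit were -0.11 and -0.10, and without knockdown replicate 4 they were -0.13 and -0.10. Knockdown replicate 5, which kept the most Rras2 signal, was closest to 0 among the knockdown arrays for the large subunit. For the small subunit it was about level with replicate 6 (-0.04 each).

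**Figure D3:**
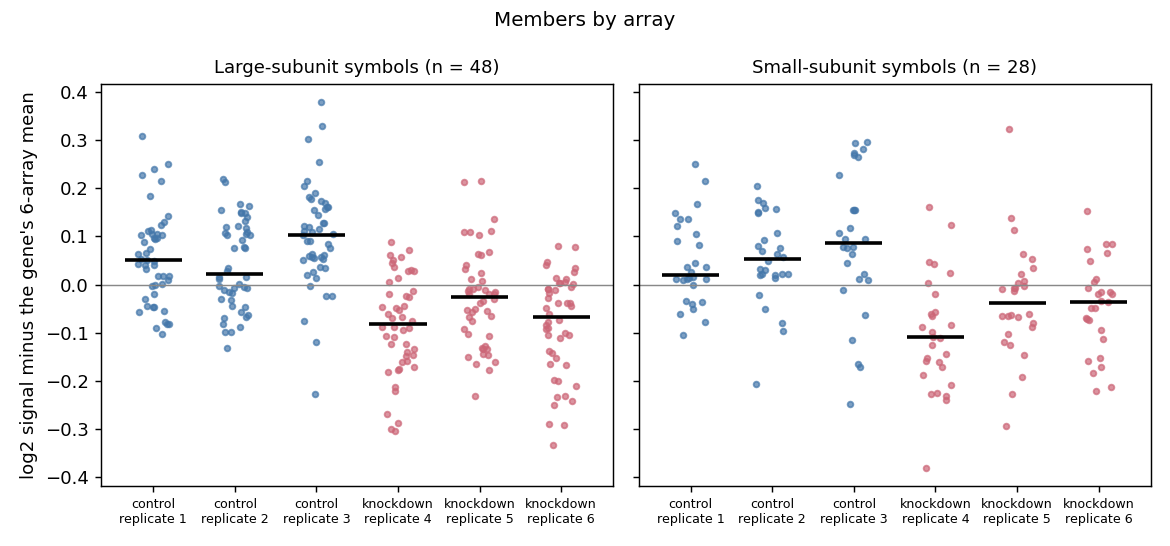
Each point is 1 gene on 1 array, as its log2 signal minus its own mean over the 6 arrays, for the 48 large-subunit (left) and 28 small-subunit (right) symbols; bars are medians. The medians of the 3 control arrays (blue) lie between 0.02 and 0.10 and those of the 3 knockdown arrays (red) between -0.11 and -0.03, while single genes scatter widely around them.

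Other genes of mitochondrial protein synthesis were taken from lists of their functions. Of 16 measured translation factors 1 (6.25%) fell and 0 rose, against 2.22% and 2.99% of all genes. The factor that fell was Tufm, the elongation factor that brings aminoacyl-tRNAs to the mitochondrial ribosome. It was 9.22, 9.23 and 9.47 in the controls and 8.59, 8.71 and 8.61 in the knockdown, and it fell by 0.67 (SE 0.09, limma adjusted p = 0.00573). It passed in all 6 fits that left out 1 array. The median of the 16 factors was -0.03, and 10 of them were below 0.

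Of 21 genes of mitochondrial aminoacyl-tRNA synthesis 2 (9.52%) fell and 0 rose, against 2.22% and 2.99% of all genes. Differences below 0 were found for 19 of them (90.5%, against 53.2% of all genes), with a median of -0.18. Both genes that fell belong to the amidotransferase that makes glutaminyl-tRNA in mitochondria. Gatc fell by 0.42 (SE 0.09, limma adjusted p = 0.038) and Gatb by 0.31 (SE 0.07, limma adjusted p = 0.0494). Gatb was under the background mark in both groups and lost its call whichever array was left out, and Gatc kept its call in 1 of the 6 such fits, with an adjusted p as high as 0.135. Of 33 ribosome assembly genes and 26 genes of mitochondrial DNA upkeep and expression 0 passed in limma, while 4 and 2 had an unadjusted p under 0.05, all lower (medians -0.10 and -0.07). These 12.1% and 7.69% lie around the 10.0% of all genes that were lower at that p. Polrmt, the RNA polymerase of mitochondria, differed by -0.04 ± 0.10, and Tfam, which packages and transcribes mitochondrial DNA, by 0.03 ± 0.12. Of 29 import genes 1 (3.45%) fell, against 2.22% of all genes, and 25 were below 0 (86.2%, against 53.2% of all genes, median -0.10). At an unadjusted limma p under 0.05, 10 of the 29 (34.5%) were lower, against 10.0% of all genes. All knockdown arrays lay below all controls for 16 (55.2%), against 42.1% of the 76 genes and 13.9% of all genes. The import gene that fell was the outer membrane channel gene Tomm40, by 0.41 (SE 0.09, limma adjusted p = 0.0357). Tomm40 kept its call in 1 of the 6 fits that left out an array, with an adjusted p as high as 0.128.

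The products of mitochondrial translation work with nuclear-encoded subunits of oxidative phosphorylation. Of 84 such subunits 2 (2.38%) fell and 0 rose, a share close to the 2.22% of all genes that fell, and the median was -0.03, nearer to that of all genes than the median of the ribosomal proteins was. The 2 were Ndufv3 of complex I, which fell by 1.13 (SE 0.10, limma adjusted p = 0.00094), and Atp5md of ATP synthase, which fell by 0.66 (SE 0.08, limma adjusted p = 0.00293). Ndufv3 was 7.36, 7.22 and 7.49 in the controls and 6.15, 6.39 and 6.15 in the knockdown, under the background mark throughout. Both passed in every fit without 1 array. Of 64 cytosolic ribosomal protein genes 0 passed in limma while 12 (18.8%) had an unadjusted p under 0.05, all lower, against 10.0% of all genes. The median of the 64 was -0.13 and 62 of them were below 0, so that their median was the same as that of the mitochondrial ribosome to 2 decimals. All knockdown arrays lay below all controls for 38 of the 64 (59.4%), against 42.1% of the 76 genes and 13.9% of all genes.

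**Figure D4:**
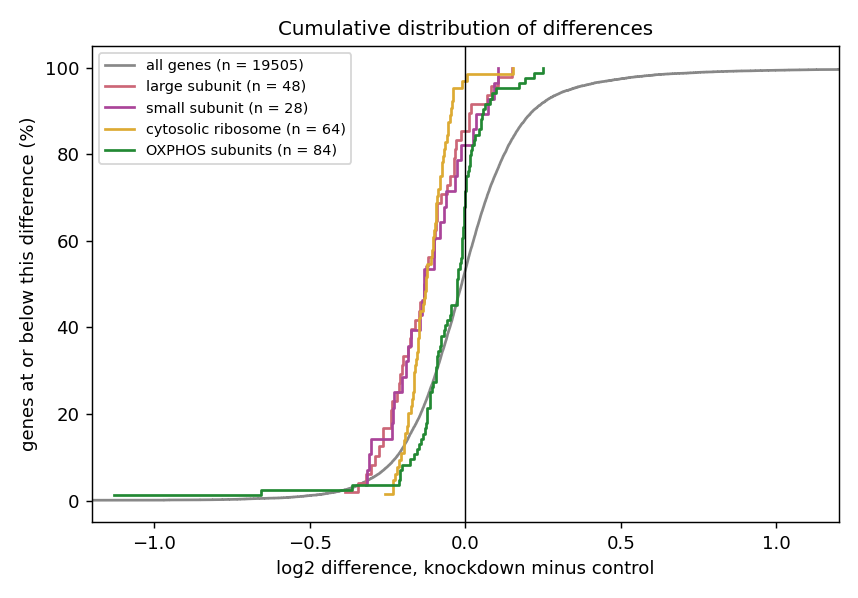
The curves give, for each set of genes, the percentage whose log2 difference (knockdown minus control) is at or below the value on the horizontal axis; the axis stops at -1.2 and 1.2. The curves of both mitochondrial subunits and of the 64 cytosolic ribosomal proteins lie left of the curve of all 19505 genes around 0, with medians of -0.13, and that of the 84 oxidative phosphorylation subunits lies between them near 0 (median -0.03).

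Of 12 measured regulators of nuclear-encoded mitochondrial genes 1 (8.33%) rose and 0 fell, against 2.99% and 2.22% of all genes. Ppargc1a, a coactivator of mitochondrial biogenesis, was 7.50, 7.26 and 7.19 in the controls and 8.05, 8.06 and 8.23 in the knockdown. It rose by 0.80 (SE 0.10, limma adjusted p = 0.00407), opposite in sign to most ribosomal protein genes, with a control mean under the background mark. The other 11 were below 0. Nrf1, a transcription factor of mitochondrial genes, differed by -0.22 ± 0.08, Gabpa, the ETS-family factor of the same genes, by -0.11 ± 0.09, and Myc by -0.34 ± 0.12 (limma adjusted p = 0.187, 0.53 and 0.161).

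Promoter sequences were read because most of these genes shared the sign of their difference. RefSeq windows of GRCm38.p6, from 250 bases before to 50 after the start, were matched by symbol for 67 of the 76 genes. They were searched on both strands for 5 short motifs. The letters CCGGAAG, the core bound by GABP and other ETS factors, were in 25 of 67 (37.3%), against 13.2% of 15691 array genes with a window and 8.86% of all 32851 windows. The letters AAGATGGC, a YY1 motif that also holds the ATG of a start codon, were in 12 (17.9%), against 3.64% of array genes and 2.75% of windows. The NRF1 core GCATGCGC was in 8 (11.9%, against 4.1% of array genes and 2.71% of windows). The E-box CACGTG was in 5 (7.46%, against 9.26% and 7.15%), and the SP1 motif GGGCGG in 33 (49.3%, against 51.2% and 35.7%). Matches of different motifs overlapped at 2 places in these windows. These shares were not set against genes of like signal. A mean above the background mark was found for 85.5% of the 76 genes, against 41.7% of all genes. A match to letters is a description and not a binding site.

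Median differences were compared between genes with and without each motif. Genes with CCGGAAG had a median difference of -0.13 and so had genes without it. The knockdown lay below the controls on every array for 11 of 25 with it and 16 of 42 without it, against 13.9% of all genes. For the YY1 motif the medians were both -0.13, with 3 of 12 and 24 of 55 so separated. The medians with and without a match were -0.12 and -0.13 for the NRF1 core and for SP1, and -0.20 and -0.13 for the E-box, which only 5 genes held. No test was made of these differences. Some matches of 5 genes are shown on the strand of the gene, 5′ to 3′, with the motif in capitals and 10 bases on each side. They are shown for the gene with the only call (Mrpl42), for 3 small-subunit genes whose groups lay apart (Mrps22, Mrps27, Mrps12) and for Mrpl27, picked after its values were seen, whose difference was 0.07 with overlapping groups.
Mrps22, ETS core, chr9:98601674-98601700, minus strand: acctctcgagCCGGAAGttgctctatc
Mrps27, ETS core in reverse complement, chr13:99344728-99344754, plus strand: ggtaggaccaCTTCCGGcggaggcggg
Mrps12, ETS core, chr7:28741804-28741830, minus strand: aggaggaaccCCGGAAGgggctggagg
Mrpl27, ETS core, chr11:94653726-94653752, plus strand: tccgcaagacCCGGAAGtagatctatc
Mrpl42, YY1 motif, chr10:95501905-95501932, minus strand: agattgaagcAAGATGGCgagcgcgcgg
Mrps27, YY1 motif, chr13:99344790-99344817, plus strand: ggtgcgctccAAGATGGCggctcccatg
In Mrps22 the ETS core began 11 bases before the start, in Mrps27 48 bases before it and in Mrps12 at the second base after it. The YY1 letters began at base 28 after the start in Mrpl42 and at base 15 in Mrps27.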

How the data were processed

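Trizol-isolated total RNA of 6 samples was labelled for Affymetrix arrays, per the labels' protocols. The authors deposited RMA output, a log2 value for each probe set and array; R 3.6.3 is named for this step in the submitters' processing notes. RMA equalizes probe distributions before probes are combined, and compresses low signals. Gene medians still differed between arrays (7.22 to 7.28). Which package and filter were used is not given in the sources used here. Of 22206 transcript probe sets 19572 had 1 gene symbol in the platform annotation, and the brightest per symbol left 19505 genes.

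Groups were compared by linear models in limma 3.58.1 (R 4.3.3), moderated with eBayes, two-sided, with the group as only term and Benjamini-Hochberg adjustment over the 19505 genes, after a test on simulated data. The number of arrays limits the precision. Genes named are those past the threshold, per subunit the 5 most negative and 3 most positive differences and the 3 brightest and 3 dimmest, Mrps30, Mrps18a and Mrps36, and from other lists those past the threshold and a few regulators; others are said to be chosen after their values were seen. The members and lists were chosen with earlier results of these data known. The alternatives were other scalings, filters, probe set rules, variance settings, array weights, a list by structural subunit and leaving out each array.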

Additional observations from a re-analysis of the deposited data

How the results depend on the processing

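The median difference was -0.17 in the large and -0.17 in the small subunit with median centring of the arrays, against -0.13 and -0.13; under the other scalings, filters and lists it stayed within the spread of the array medians, and without 1 array it lay between -0.16 and -0.11 in the large and between -0.15 and -0.10 in the small subunit. That centring also turned the split of all calls from 433 lower and 584 higher to 567 lower and 506 higher. The count past the threshold in the large subunit was 0 with cyclic loess, 6 with trend and robust settings, 2 at an adjusted p under 0.1 (a setting chosen after seeing the data), and 0 to 1 without 1 array, where the 1 was Mrpl34 without knockdown replicate 5. In the small subunit it was 2 with median centring (Mrps18b and Mrps22), 2 without the lowest 30% of genes, 3 with trend and robust settings, 1 with array weights and 3 at an adjusted p under 0.1. Under trend and robust settings 9 of the 76 were called, all lower. Of the 19505 genes 1908 were then called, 943 of them lower, against 1017 and 433 in the main fit. The share called among the 76 was then above that of all genes. In counts chosen after seeing the data, between 28 and 39 of the 76 were lower with groups apart under the scalings and without 1 array, against 12.6% to 20.6% of all genes, and 0 to 3 were higher, against 8.56% to 17.3%. The causes were not tested. No paired analysis was possible because the groups share no replicate numbers. A dim signal limits what can be seen in 11 of the 76 genes.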

Other observations

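Starts of other genes on the opposite strand were looked for close to these genes. In the RefSeq windows of GRCm38.p6, 26 of 67 genes had such a divergent start within 1000 bases, and 23 of these had a measured neighbour. The share of all genes with such a start was not counted. The 23 neighbours include Mrpl46 and Mrps11, each the neighbour of the other. Of the 23, 16 had a difference below 0 (median -0.05), against 53.2% of all genes (median -0.01). In limma 0 of the 23 passed the threshold and 2 had an unadjusted p under 0.05, against 19.1% of all genes. Mrps12 starts 147 bases from Sars2, the mitochondrial seryl-tRNA synthetase, and the differences were -0.24 and -0.10. Mrpl43 starts 116 bases from Twnk, the helicase of mitochondrial DNA, with -0.21 and -0.12. Mrpl40 starts 113 bases from Hira, a histone chaperone, with -0.18 and -0.28 (limma adjusted p for Hira 0.066). Mrpl46 and Mrps11, a large- and a small-subunit gene, start 42 bases apart and differed by -0.05 and -0.07. In other pairs the signs differed, as for Mrps5 (-0.32) and Zfp661 (0.19) or Mrpl30 (-0.27) and Mitd1 (0.20). These neighbours were picked after their values were seen.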
